A study of Mus musculus with 4 samples.

Results

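Snail, Zeb and Twist factors are transcription factors of mesenchymal cells, and 6 of their genes (Snai1, Snai2, Zeb1, Zeb2, Twist1 and Twist2) are described here with 2 mesenchymal cadherin genes, Cdh2 and Cdh11. These 8 genes were taken by name from the 38921 gene rows of the count tables, each symbol had 1 row, and all 8 passed the filter on low counts. The libraries were made from poly-A RNA of fibroblasts cultured from the mouse pancreas in serum-containing medium, 2 from wild type and 2 from KPC animals, all of mixed strain. KPC commonly denotes mice that develop pancreatic cancer through a Cre active in the pancreatic epithelium, commonly from the Pdx1 promoter. The labels give only the name, and neither the alleles, the age of the animals nor whether any were pooled. The labels call the libraries biological replicates without naming animals or cultures, so a p-value reflects only how far these libraries spread, which may be technical.

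Snail proteins (SNAI1, and SNAI2, also called Slug) and ZEB proteins are zinc finger repressors that bind E-boxes of the form CAGGTG in the promoters of epithelial genes such as Cdh1, the E-cadherin gene. Twist proteins are basic helix-loop-helix factors that bind DNA as dimers with E proteins. The factors are best known for epithelial-mesenchymal transition, the passage of epithelial cells to a migratory state, but fibroblasts, which are mesenchymal already, also express them. Cdh2 encodes N-cadherin and Cdh11 encodes cadherin-11, adhesion proteins that join mesenchymal cells to each other.

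The E-box is shown here in the promoter of Snai1, whose product is known to bind its own promoter, beside the promoter of Twist2, the member with the largest difference between the groups. Each sequence is the 250 bases before the start in RefSeq's GRCm38.p6 build, plus strand, with CAGGTG or its reverse complement CACCTG in capitals. Snai1 lies at chr2:167537945-167538194 and Twist2 at chr1:91801211-91801460.
Snai1: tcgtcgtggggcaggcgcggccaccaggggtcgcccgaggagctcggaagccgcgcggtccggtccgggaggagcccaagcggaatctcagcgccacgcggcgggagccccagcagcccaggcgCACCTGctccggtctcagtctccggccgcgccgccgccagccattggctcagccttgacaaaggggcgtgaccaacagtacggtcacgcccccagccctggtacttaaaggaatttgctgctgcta
Twist2: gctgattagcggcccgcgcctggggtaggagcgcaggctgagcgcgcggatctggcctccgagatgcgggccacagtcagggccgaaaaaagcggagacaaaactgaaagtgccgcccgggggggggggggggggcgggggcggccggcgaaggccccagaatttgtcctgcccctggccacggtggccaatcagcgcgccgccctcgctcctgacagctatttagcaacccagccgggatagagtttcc
The Snai1 window holds 1 such E-box, whose first base is at -126 from the start, and the Twist2 window holds 0. The RefSeq table matched 4 of the 8 members (Snai1, Twist1, Twist2 and Zeb2, the last with several starts), and Snai2, Zeb1, Cdh2 and Cdh11 were not matched. Searched on both strands, CAGGTG or CACCTG stands in 17.2% of all 32851 promoter windows of this length, and any CANNTG in 66.2%. Among the matched members' windows, the Snai1 window was the only one with either.

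Both ZEB messages are also known targets of the miR-200 family of epithelial microRNAs, which differ by 1 base in the seed. Their mature forms are given from RefSeq (GRCm38.p6) with the seed, bases 2 to 8, in capitals, because the seed sorts the family into 2 groups.
miR-141-3p: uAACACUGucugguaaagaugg
miR-200a-3p: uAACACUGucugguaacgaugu
miR-200b-3p: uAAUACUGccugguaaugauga
miR-200c-3p: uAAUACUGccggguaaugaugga
miR-429-3p: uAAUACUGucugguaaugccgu
The rows of all 5 hairpin genes had 0 counts in every library. Poly-A libraries of this kind do not measure mature microRNAs, so these counts say nothing of their level.

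Counts summed over rows were between 22302141 (wild type 2) and 68312367 (KPC 2) per library. Levels are in CPM, counts scaled to a common library size with TMM factors, and intervals of a single library are exact Poisson intervals at 95%, which cover counting error only. The 12 fibroblast markers had a high sum in all 4 libraries (13224 to 15436 CPM), with the collagen gene Col1a1 between 4088 and 5245 CPM. Not every marker was high, since Lum lay between 0.171 and 7.34 CPM and Fap between 2.07 and 8.05 CPM. Markers of other cells differed between libraries. The 17 macrophage and leukocyte markers summed to 77.0 and 288 CPM in the wild type pair and to 1191 and 2413 CPM in the KPC pair, and each of the 17 was higher in KPC 1 and KPC 2 than in either wild type library. Pairs of values are given in the order of library 1 and library 2 of a group. The 14 epithelial markers summed to 64.0 and 748 against 2049 and 1502 CPM. Of these 14, 4 were higher and 1 was lower in both KPC libraries, beside 20.6% and 20.5% of all tested rows. Spp1 alone gave 29.7 and 310 against 860 and 1050 CPM of these sums. The 12 endothelial markers summed to 1034 CPM in wild type 1 and to 162, 44.2 and 98.1 CPM in wild type 2, KPC 1 and KPC 2, and the 11 islet markers to 947 CPM in wild type 2 but no more than 2.70 CPM in any other library. Wild type 1 had 1 islet marker at 0, KPC 1 had 4 and KPC 2 had 2, while no macrophage, epithelial or endothelial marker was at 0 in any library. Their part in the results below was not tested, and in bulk RNA fewer cells of a type and less RNA per cell cannot be told apart.

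In these fibroblasts all 6 factors and both cadherins were expressed in every library, and for 6 of the 8 genes the wild type and KPC levels overlapped. The largest difference was that of Twist2, with 15.3 and 17.4 CPM in the wild type pair, and 2.21 and 9.60 CPM in the KPC pair, which did not pass the test. By edgeR's quasi-likelihood test 0 of the 8 members passed at an adjusted p of 0.05, as did 0% of the 23046 rows tested, and 0 had an unadjusted p under 0.05, where 8.67% of all rows did. DESeq2 and limma voom each gave 1 member an unadjusted p under 0.05, Twist2 in both, and 0 an adjusted one. Over all rows limma voom called 0, DESeq2 called 352 higher and 292 lower, and edgeR without wild type 2 called 429 higher and 406 lower. Of the members, 2 (Twist2 and Zeb1) had each KPC library below each wild type library and 0 had the reverse. Over all tested rows these shares were 20.5% and 20.6%, so 2 of 8 is near the background. The median log2 fold change of the members was -0.39, beside -0.01 over all tested rows.

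**Figure D1:**
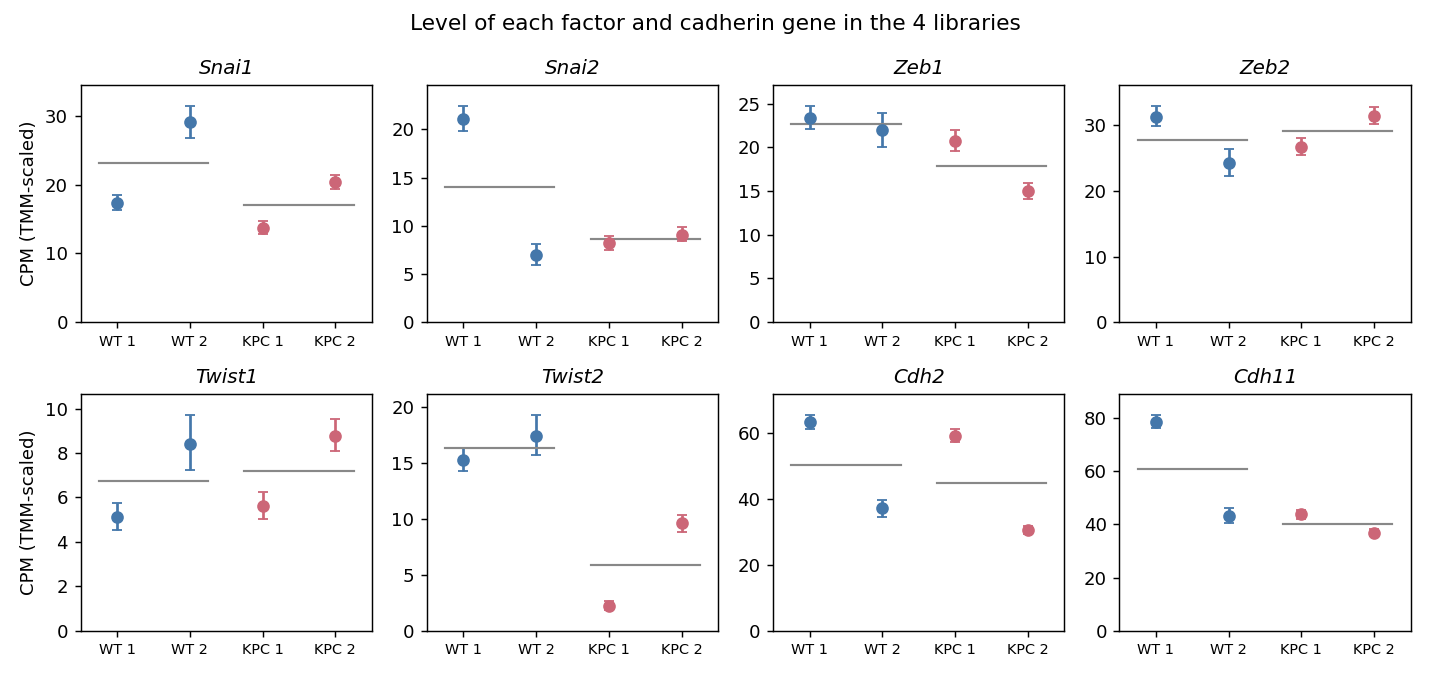
CPM (TMM-scaled, y axis from 0, a scale for each panel) of the 8 genes in the 2 wild type (WT, blue) and 2 KPC (red) libraries, with exact 95% Poisson intervals and group means as grey lines. Only in the Zeb1 and Twist2 panels do both KPC points lie below both wild type points.

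Snai1 (chromosome 2, 167538195 to 167542814, mm10), which is known as an early inducer of epithelial-mesenchymal transition, had 17.4 and 29.1 CPM in the wild type libraries, against 13.7 and 20.4 CPM in the KPC libraries. The groups overlapped, and the 2 wild type libraries differed from each other by 1.67-fold. KPC differed from wild type by a log2 fold change of -0.44 ± 0.34 (SE, n = 2 each), with a 95% interval from -1.34 to 0.46 (edgeR adjusted p = 0.759). Without wild type 2, its highest library, the log2 fold change was -0.02, and without wild type 1 it was -0.77.

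Snai2 (chromosome 16, 14705852 to 14709395), a Snail factor also known from neural crest and mesenchyme, was highest in wild type 1. It stood at 21.1 CPM there, at 6.93 CPM in wild type 2, with 8.18 CPM in KPC 1 and 9.08 CPM in KPC 2. Wild type 2 was the lowest of the 4, so that the wild type libraries lay on both sides of the KPC pair, 3.04-fold apart. The log2 fold change of -0.71 ± 0.54 (SE; 95% interval -2.12 to 0.71; edgeR adjusted p = 0.754) rested on wild type 1: without that library it was 0.32, and without wild type 2 it was -1.29. Wild type 1 was also the library with the most endothelial marker counts (1034 CPM in sum). The third Snail gene, Snai3, was nearly silent, with 10 and 0 counts in the wild type pair and 10 and 28 in the KPC pair, and the 0 allows up to 0.134 CPM (3 counts).

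Zeb1 (chromosome 18, 5591860 to 5775467), the ZEB factor most often tied to carcinoma cells, had 23.3 and 22.0 CPM in the wild type libraries, against 20.8 and 14.96 CPM in the KPC libraries. Both KPC libraries were below both wild type libraries, but the Poisson intervals of KPC 1 (19.6 to 22.0 CPM) and wild type 2 (20.1 to 24.0 CPM) overlapped. The log2 fold change was -0.34 ± 0.23 (SE), with a 95% interval from -0.93 to 0.25 (edgeR adjusted p = 0.711). Without KPC 2 it was -0.13 and without KPC 1 it was -0.59. The row Gm10125 shares 1646 bases with the Zeb1 interval and had 30.8% to 41.2% as many counts, and the library kit does not mark strand. The level of Zeb1 and the separation of its groups are therefore uncertain.

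Zeb2 (chromosome 2, 44983634 to 45117395), which is also expressed by macrophages, was the steadiest member. It had 31.3 and 24.3 CPM in the wild type libraries, against 26.8 and 31.5 CPM in the KPC libraries, a range of 1.29-fold over the 4 libraries. Its log2 fold change was 0.06 ± 0.21 (SE), with a 95% interval from -0.49 to 0.62, a fold between 0.712 and 1.54 (edgeR adjusted p = 0.960). The summed macrophage markers stood at 1191 and 2413 CPM in KPC and at 77.0 and 288 CPM in wild type, and their part in the level of Zeb2 was not tested. The row Gm13476 lies inside the Zeb2 interval, over 2950 bases, and had 6.80% and 11.9% as many counts as Zeb2 in wild type and 12.3% and 15.9% in KPC.

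Twist1 (chromosome 12, 33957671 to 33959817), a regulator of cranial and limb mesenchyme, had the fewest CPM of the 8 genes on average. It had 5.12 and 8.41 CPM in the wild type libraries, against 5.63 and 8.79 CPM in the KPC libraries, so that each group held a lower and a higher library at nearly the same levels. Its log2 fold change was 0.10 ± 0.38 (SE; 95% interval -0.88 to 1.08; edgeR adjusted p = 0.967).

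Twist2 (chromosome 1, 91801461 to 91848028), a close relative of Twist1 also called Dermo1, had 15.3 and 17.4 CPM in the wild type libraries, against 2.21 and 9.60 CPM in the KPC libraries. The wild type libraries were within 1.14-fold of each other and the KPC libraries 4.34-fold apart. KPC 1 had 130 counts, an interval of 1.85 to 2.62 CPM, and KPC 2 had 651 counts, an interval of 8.88 to 10.4 CPM. The fitted difference was a log2 fold change of -1.47 ± 0.70 (SE), with a 95% interval from -3.29 to 0.35, and it did not pass (unadjusted p = 0.0917, edgeR adjusted p = 0.623). Without KPC 1 it was -0.76 and without KPC 2 it was -2.89, so its size rested on KPC 1, while the sign was negative in all 13 alternative fits. With the replicate number as a block the log2 fold change was -1.81 (unadjusted p = 0.0325, adjusted p = 0.521). KPC 1 was also the library with the highest epithelial marker sum, 2049 CPM, and the highest mesothelial marker sum, 175 CPM. Not every epithelial marker was highest there: Epcam had 5.41 CPM in KPC 1 and 18.1 CPM in KPC 2, and Krt7 37.9 and 116 CPM. In the wild type pair the epithelial sums were 64.0 and 748 CPM, beside 15.3 and 17.4 CPM of Twist2. The part of these cells in the level of Twist2 was not tested.

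**Figure D2:**
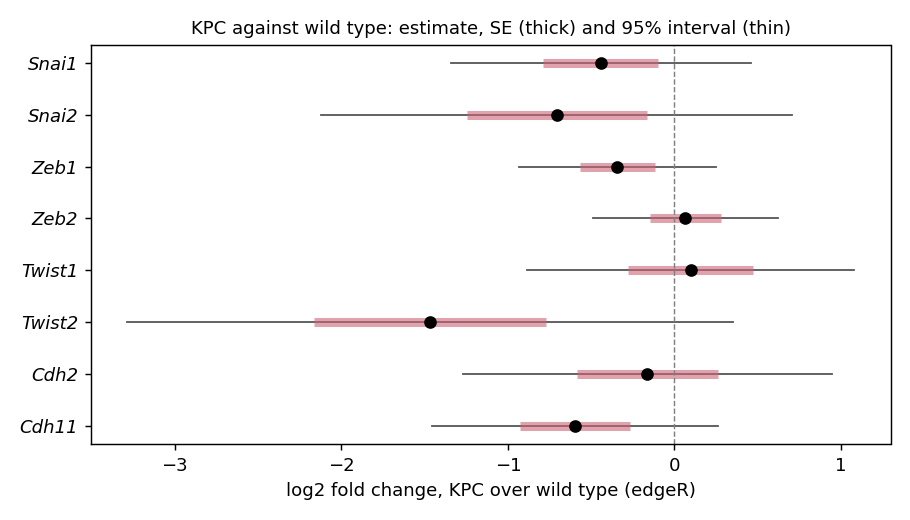
Log2 fold change of KPC over wild type (x axis) for each gene by edgeR, as a point with its SE (thick line) and 95% interval (thin line). Every interval spans 0, and the interval of Twist2, from -3.29 to 0.35, is the widest.

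Cdh2 (chromosome 18, 16588877 to 16809246), the N-cadherin gene that carcinoma cells often gain in epithelial-mesenchymal transition, had 63.3 and 37.2 CPM in the wild type libraries, against 59.2 and 30.6 CPM in the KPC libraries. Each group held a higher and a lower library, and the spread within groups, 1.70-fold and 1.94-fold, was larger than the difference between them. The log2 fold change was -0.16 ± 0.42 (SE; 95% interval -1.27 to 0.94; edgeR adjusted p = 0.946). Cdh11 (chromosome 8, 102632995 to 102785111), a cadherin gene of fibroblasts and osteoblasts, had 78.5 and 43.3 CPM in the wild type libraries, against 43.7 and 36.9 CPM in the KPC libraries. Wild type 1 was well above the other 3 libraries, and wild type 2 and KPC 1 had overlapping Poisson intervals. The log2 fold change was -0.60 ± 0.33 (SE; 95% interval -1.46 to 0.26; edgeR adjusted p = 0.656). Without wild type 1 it was -0.10 and without wild type 2 it was -0.96.

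The upper bounds of the 95% intervals show what increase in KPC these libraries leave room for. Those of Zeb1 and Cdh11 lay at 1.19-fold and 1.197-fold, that of Twist2 at 1.28-fold, that of Snai1 at 1.37-fold, that of Zeb2 at 1.54-fold and that of Snai2 at 1.63-fold. Cdh2 and Twist1 reached 1.92-fold and 2.11-fold. The bound of Zeb1 is uncertain, because it is that of a row that shares bases with Gm10125, which had 30.8% to 41.2% as many counts. The lower bounds ran from 0.103-fold (Twist2) to 0.712-fold (Zeb2).

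Per kb of exon (GENCODE M21, all exons of a gene joined), Snai1 was the highest factor, with a mean of 12.4 ± 4.04 CPM per kb (SD over the 4 libraries). Cdh2 (5.90 ± 2.00), Cdh11 (5.68 ± 2.12), Snai2 (5.60 ± 3.25), Twist1 (4.29 ± 1.16) and Twist2 (3.51 ± 2.14 CPM per kb) followed, then Zeb1 (1.97 ± 0.359) and Zeb2 (1.43 ± 0.177 CPM per kb). Snai1 and Cdh2 stood apart, with Snai1 above Cdh2 in all 4 libraries and no overlap of their ranges. Snai1 did not stand clear of all the others. Its range (8.46 to 17.9 CPM per kb) overlapped those of Snai2 (3.43 to 10.4) and Cdh11 (4.14 to 8.82 CPM per kb). The ranges of every later pair of neighbours overlapped, and Cdh2 exceeded Cdh11 in 1 of the 4 libraries only. The order moved with the length used. With the bases covered by reads as the length, Snai1 (8.95) exceeded Cdh2 (7.80 CPM per kb) in 2 of the 4 libraries, and in wild type 1 Snai2 (8.67) exceeded Snai1 (6.64 CPM per kb). With the longest coding transcript as the length, Snai1 (12.4) and Cdh2 (9.82 CPM per kb) overlapped, and Zeb1 and Zeb2 stood at 3.49 and 3.12 CPM per kb. In wild type 1 the reads of Snai1 covered 2617 bases, 996 more than its exons hold. They covered 283 more in wild type 2, 422 more in KPC 1 and 1223 more in KPC 2. Those of Cdh11 covered 2929 more in wild type 1, so some reads lay outside annotated exons.

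Within the Twist pair the share of each gene is another view of the Twist2 values above, since Twist1 was nearly flat. Twist1 made up 39.5% and 48.5% of the Twist signal per kb of exon in wild type 1 and 2, and 83.2% and 64.1% in KPC 1 and 2. The groups did not overlap, and the log2 ratio of Twist1 to Twist2 was 1.93 higher in KPC on average, and 1.19 higher without KPC 1. An exact two-sided permutation test gave p = 0.333 (0.889 adjusted over the 4 pairs). Since 0.333 is the smallest p that 2 libraries against 2 allow, this test could not pass and decides nothing about the difference. In the other pairs the shares overlapped between groups. Snai1 made up 50.7% and 83.9% of the Snail pair in wild type and 67.7% and 73.7% in KPC. Zeb1 made up 59.1% and 63.7% of the ZEB pair against 60.1% and 48.0%, and Cdh2 made up 47.1% and 48.7% of the cadherin pair against 60.0% and 47.8%.

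**Figure D3:**
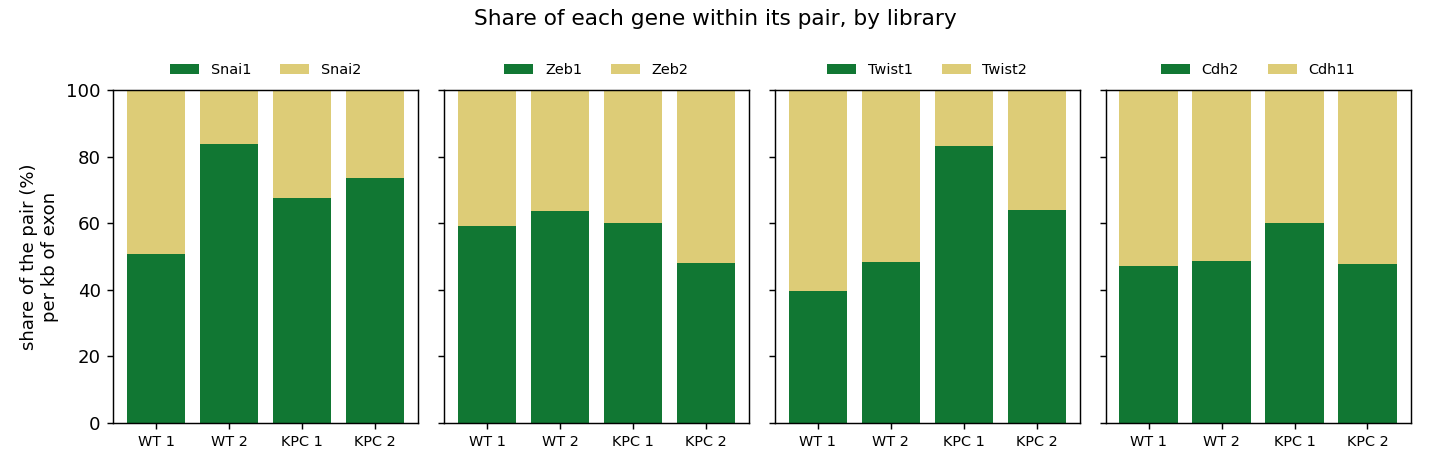
Share of each gene within its pair (y axis, percent of the summed CPM per kb of exon) in the wild type (WT) and KPC libraries. Twist1 (green in the third panel) holds 39.5% and 48.5% in wild type and 83.2% and 64.1% in KPC.

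The proteins that work with the factors were examined as lists, which were chosen with earlier results of these data known. Each list's counts are to be read beside all tested rows, of which 48.7% had a positive log2 fold change, 20.6% were higher and 20.5% lower in both KPC libraries, and 4.73% and 3.94% were higher and lower at an unadjusted p under 0.05. Of 10 tested Twist partners and Id antagonists, 1 was higher and 2 were lower in both KPC libraries, near or under the 20.6% and 20.5%. The median log2 fold change was -0.22, from -0.62 without KPC 2 to -0.07 without wild type 2. At an unadjusted p under 0.05 by edgeR, 0 were higher and 2 were lower, where 4.73% and 3.94% of all rows were. The partner gene Tcf12 was even, at 238 and 213 against 237 and 223 CPM. The lower ones were Id3 and Id1, whose products hold E proteins away from DNA. Wild type libraries had 145 and 91.5 CPM of Id3 and KPC libraries 48.7 and 60.7 CPM (log2 fold change -1.11 ± 0.29 SE, unadjusted p = 0.0128, edgeR adjusted p = 0.459). Id1 had 53.1 and 41.2 against 32.3 and 26.9 CPM (-0.67 ± 0.22 SE, edgeR adjusted p = 0.537). Neither passed over all rows. The other Id genes overlapped between groups, Id2 at 19.6 and 7.96 against 14.5 and 14.2 CPM, and Id4 at 5.04 and 7.33 against 3.77 and 8.74 CPM. Id3 and Id1 were highest in wild type 1, where the endothelial sum was 1034 CPM, and the part of endothelial cells was not tested.

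Corepressors and chromatin cofactors had small and mostly positive differences. Of 19 tested genes 18 had a positive log2 fold change (48.7% of all rows did), 8 were higher in both KPC libraries (20.6% of all rows) and 1 was lower in both, with a median of 0.20 that was 0.13 without KPC 1. Ctbp1, which encodes a corepressor recruited by ZEB proteins, stood at 92.6 and 83.6 against 120 and 110 CPM (0.38 ± 0.17 SE, edgeR adjusted p = 0.606), and the deacetylase gene Hdac1 at 35.9 and 43.1 against 43.5 and 51.3 CPM. None of the 19 had an unadjusted p under 0.05. Of 13 tested regulators of Snail protein turnover, 1 was higher in both KPC libraries and 0 lower (median 0.03, and 0.28 without wild type 1). Btrc, the ubiquitin ligase gene with the most counts in that list, cannot be read here, because 61.1% to 65.4% as many counts lay in the processed pseudogene Gm6807 inside its interval.

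Other transcription factors linked to epithelial-mesenchymal transition lay on both sides. Of 16 tested, 3 were higher and 5 were lower in both KPC libraries, beside 20.6% and 20.5% of all rows (median -0.09, from -0.42 without KPC 2 to 0.09 without wild type 2). At an unadjusted p under 0.05, 1 was higher and 3 were lower, where 4.73% and 3.94% of all rows were. Foxc2, a forkhead factor of mesenchyme, had 22.6 and 11.05 CPM in the wild type pair, and 4.22 and 5.205 CPM in the KPC pair (log2 fold change -1.84 ± 0.41 SE, unadjusted p = 0.00694, edgeR adjusted p = 0.390). Foxc1 was placed alike, with 7.19 and 3.58 against 1.99 and 2.86 CPM. The homeobox gene Msx2 was low throughout, at 0.894 and 1.39 against 0.204 and 0.221 CPM. Foxc2 is also expressed by endothelial cells, and it was highest in wild type 1, where the endothelial sum was 1034 CPM. The homeobox gene Prrx2 was on the other side, at 6.89 and 11.4 against 21.6 and 16.7 CPM, while its relative Prrx1, a marker of mesenchymal cells, stood at 86.1 and 58.7 against 43.4 and 89.7 CPM. Of 28 tested signals that induce the factors 14 had a positive log2 fold change, and 3 were higher and 6 lower in both KPC libraries (median -0.01). The TGF-beta receptor gene Tgfbr2 stood at 32.6 and 35.9 against 47.2 and 47.4 CPM (0.47 ± 0.16 SE, adjusted p = 0.547) and Hif1a, the hypoxia factor gene, at 44.4 and 94.1 against 202 and 159 CPM. On the lower side, the Notch target gene Hes1 had 38.2 and 35.2 against 27.3 and 24.3 CPM (-0.51 ± 0.17 SE, edgeR adjusted p = 0.541) and Hmga2, a chromatin protein gene, 70.6 and 34.97 against 31.8 and 18.2 CPM.

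Epithelial genes that Snail and ZEB factors are known to repress spread widely between libraries. Of 23 tested, 20 had a positive log2 fold change (48.7% of all rows did), 8 were higher and 2 lower in both KPC libraries (20.6% and 20.5% of all rows), and the median was 0.80. Cdh1, the E-cadherin gene, had 0.818 and 18.9 CPM in the wild type libraries, against 81.5 and 29.4 CPM in the KPC libraries (log2 fold change 2.51 ± 1.41 SE, edgeR adjusted p = 0.663). The 4 libraries spread widely, and wild type 1 was far below the other 3. The epithelial marker sums given above (64.0, 748, 2049 and 1502 CPM) include Cdh1 itself. These sums were lowest in wild type 1 and highest in KPC 1 as well, and the part of epithelial cells in the level of Cdh1 was not tested. Muc1, a mucin gene, had 0.247 and 2.24 CPM in wild type with 17.7 and 9.27 CPM in KPC. For Krt19, which encodes a ductal keratin, the wild type values of 5.23 and 20.1 CPM also lay below the KPC values of 64.7 and 34.9 CPM. Krt8 overlapped, since wild type 2 (146 CPM) exceeded KPC 2 (85.1 CPM). Claudin-1 (Cldn1), at 1.103 and 0.447 against 0.0510 and 0.221 CPM, was on the lower side. None of these genes passed. The list's median was 0.19 without wild type 1, 0.13 without KPC 2 and 2.18 without wild type 2, and it shares genes with the epithelial markers above. Of 16 tested gatekeepers of the epithelial state, 14 had a positive log2 fold change, and 4 were higher and 1 lower in both KPC libraries, where 20.6% and 20.5% of all rows were. Their median of 0.62 was 0.19 without wild type 1, 0.32 without KPC 1, 0.24 without KPC 2 and 1.09 without wild type 2. The higher ones included Elf3, an epithelial Ets factor gene, with 0 counts in wild type 1, 1.88 CPM in wild type 2, 6.02 CPM in KPC 1 and 4.69 CPM in KPC 2.

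Among the other cadherins, 19 of 20 were tested, 4 were higher and 9 lower in both KPC libraries, beside 20.6% and 20.5% of all rows. The median was -0.35, and -0.18 without KPC 2 or -0.22 without wild type 1. By edgeR 2 were higher and 3 lower at an unadjusted p under 0.05, beside 4.73% and 3.94% of all rows. P-cadherin (Cdh3), an epithelial cadherin, had 3.06 and 3.04 CPM in the wild type pair, and 10.2 and 6.83 CPM in the KPC pair (log2 fold change 1.48 ± 0.30 SE, unadjusted p = 0.00483, edgeR adjusted p = 0.358). The liver-intestine cadherin gene Cdh17 was high in 1 library, KPC 1, at 32.2 CPM, while the other libraries had 0.571 to 1.36 CPM. VE-cadherin (Cdh5), the endothelial cadherin, was high in wild type 1, at 58.5 CPM against 6.40, 3.59 and 4.51 CPM. Cdh18 had the highest count of the list in each library, 203 and 148 against 178 and 215 CPM, but the row Gm5803 inside its interval had 39.4% to 50.4% as many counts, so its level is uncertain. The catenin genes Ctnnb1 and Ctnna1, whose products tie cadherins to actin, overlapped between groups. Ctnnb1 ranged from 165 to 245 CPM in wild type and from 165.5 to 224 CPM in KPC, and Ctnna1 from 170 to 238 CPM and from 180 to 242 CPM.

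**Figure D4:**
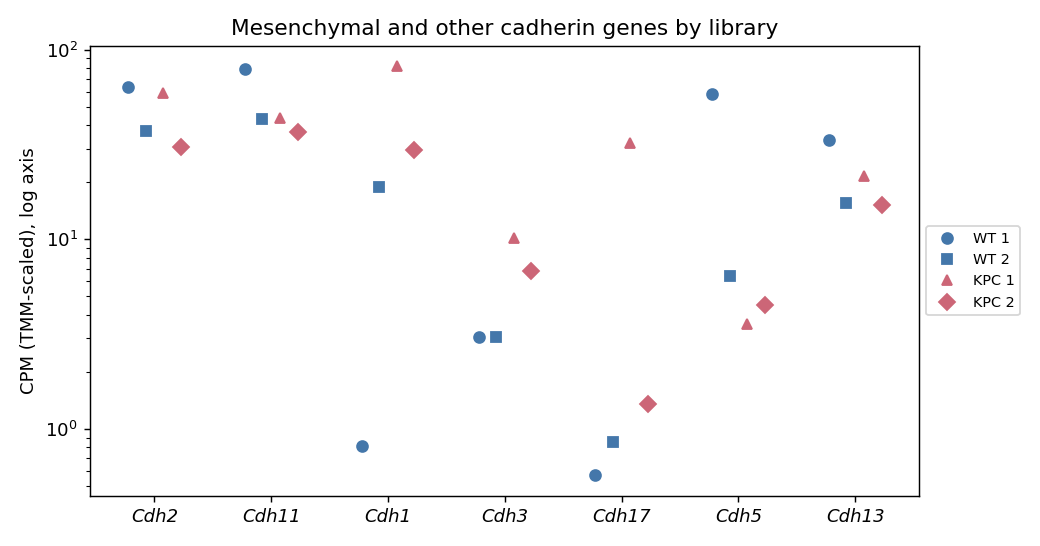
CPM (TMM-scaled, log axis) of Cdh2, Cdh11 and 5 other cadherin genes in the wild type (WT, blue) and KPC (red) libraries. Cdh2 and Cdh11 stay between 30.6 and 78.5 CPM, whereas Cdh1 runs from 0.818 to 81.5 CPM and Cdh5 is highest in wild type 1.

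Mesenchymal genes linked to the factors lay on both sides. Of 25 tested, 3 were higher and 8 lower in both KPC libraries, beside 20.6% and 20.5% of all rows. By edgeR 1 was higher and 3 lower at an unadjusted p under 0.05, beside 4.73% and 3.94% of all rows. The median of -0.04 ran from -0.40 without wild type 1 to 0.57 without wild type 2. Vim, the vimentin gene, had 3695 and 2157 CPM in the wild type pair, and 1730 and 1698 CPM in the KPC pair (log2 fold change -0.77 ± 0.30 SE, edgeR adjusted p = 0.579). S100a4, also called fibroblast-specific protein, stood at 1284 and 341 against 130 and 289 CPM. Mmp2, a gelatinase gene, was on the other side, at 67.4 and 134 against 268 and 317 CPM.

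The genes most like each member were sought among 13236 other rows with a mean of at least 5 CPM, by the root mean square distance of log2 CPM centred over the 4 libraries. The nearest to Cdh11 was Ptrf, a caveolar protein gene (distance 0.0292), the nearest to Cdh2 was Golgb1, a Golgi protein gene (0.0284), and the nearest to Zeb1 was the nuclear receptor gene Rora (0.0260). For Snai2 they were Ddit4l (0.0630) and Dock4 (0.0778), for Snai1 0610007N19Rik (0.0538) and Cacng7 (0.0564), and for Twist1 Ptplad2 (0.0125) and Cd3eap (0.0361). The number of rows within 0.1 was 585 for Zeb2, with Gm13310 and Mknk2 nearest, 76 for Zeb1, 54 for Cdh11, 34 for Twist1, 12 for Cdh2, 10 for Snai1 and 5 for Snai2. Twist2 had 0 such rows, and its nearest were 2610042L04Rik (0.112) and Ppp1r14a (0.114). Ppp1r14a, a smooth muscle phosphatase inhibitor gene, had 20.96 and 25.2 CPM in the wild type pair, and 2.58 and 12.4 CPM in the KPC pair. The distance is not scaled by the spread of a gene, so genes with a wide range tend to have fewer rows within 0.1. Over the 4 libraries Zeb2 ranged 1.29-fold and Twist2 7.89-fold, so these numbers do not show that the profile of Twist2 is unusual.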

How the data were processed

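Counts came from 1 table per library without a header. The deposited values are whole-number read counts per gene interval, with the number of bases covered and the fraction of the interval covered (a deposited fraction used only to describe coverage). Per the submitters' processing notes, the tools were TopHat2 2.0.3, SAMtools 0.1.18, FastQC 0.10.1 and bedtools on mm10, and the step each served is not given in the sources used here. Totals are sums over overlapping rows (processed pseudogenes held 23.5% to 25.0%), so paralogs, antisense and nested genes are uncertain. Rows were fitted with edgeR 4.0.16 in R 4.3.3 (filterByExpr with minimum count 10, TMM, two-sided quasi-likelihood test, KPC over wild type, Benjamini-Hochberg over 23046 rows). The SE was taken as the log2 fold change over root F, and 95% intervals use the test's degrees of freedom (2 residual, 2.76 prior). Scripts were tested on simulated data. Alternatives used DESeq2 1.42.0, limma 3.58.1, other scalings and filters, a block for replicate number, and fits lacking 1 library.

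The members and lists were chosen with earlier results of these data known. From 11 pathway lists, genes named were up to 5 with groups apart and smallest p, the 2 with the highest mean, and Cdh1, Vim, Snai3 and Prrx1; not all are printed. Of 302 entries 301 had a row, 3 of them under an older symbol. Acinar, Schwann, pericyte and mesothelial marker lists (medians 0.33, -0.35, 0.26 and 1.43 log2) and a microRNA gene list (1 tested gene, Mir214, -1.11) were also summarised. Exon lengths are from GENCODE M21 (GRCm38), figures from matplotlib 3.10.9. Chi-square per degree of freedom between replicates was 115 (wild type) and 62.6 (KPC), so no library repeated another.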

Additional observations from a re-analysis of the deposited data

How the results depend on the processing

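Of 104 refits of the 8 members (13 alternatives each), 96 kept the sign of the log2 fold change and 8 changed it, in Snai2, Zeb2, Twist1 and Cdh2, and 0 gave an adjusted p under 0.05. With upper quartile factors Zeb2 was at -0.00097, where the median of all rows shifted by -0.07. When 1 library was left out, which leaves a lone library assumed to vary like the other group, the log2 fold change ran from -1.29 to 0.32 for Snai2, from -0.10 to 0.26 for Zeb2, from -0.27 to 0.50 for Twist1 and from -0.71 to 0.27 for Cdh2. Over all rows edgeR called 0 higher and 0 lower in every alternative scaling and filter and with the replicate block, and limma voom called 0 and 0. At an unadjusted p under 0.05 edgeR had 1090 higher and 909 lower with TMM factors, and 917 and 1087 with upper quartile factors. DESeq2 called 352 higher and 292 lower. With 1 library left out the count ran from 0 to 429 higher and from 0 to 406 lower, both highest without wild type replicate 2. The cause was not tested. Both KPC 2 (0.969) and KPC 1 (0.958) correlated more closely with wild type 2 than wild type 1 did (0.949). The KPC pair itself stood at 0.978, and wild type 1 was least like KPC 1 (0.9295) and KPC 2 (0.931). The wild type pair was thus less alike than wild type 2 and either KPC library, a limit on every comparison of the groups. The replicate numbers gave no pairing: deviations of same-numbered libraries correlated at 0.136 over tested rows, with 2 pairs only. Medians of gene lists without a test also changed sign for 4 lists: from -0.42 to 0.09 for other factors, -0.40 to 0.57 for mesenchymal genes, -0.24 to 0.04 for catenins and -0.13 to 0.11 for inducing signals. Protein-coding rows only, the longest transcript as length and the pair shares and ratios, with all libraries or without 1, were chosen after seeing the data. The Twist1 to Twist2 log2 ratio difference ran from 1.19 to 2.66, and that of Snai1 to Snai2 from -1.11 to 1.24. The block moved Twist2 to -1.81 and changed no call. With 2 libraries a group and counts of 130 to 4127 per member, the spread between libraries rather than counting sets the width of the intervals.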
